A study of Homo sapiens with 9 samples.

Results

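KOPTK1 is an established human line of T-cell acute lymphoblastic leukaemia (T-ALL). The comparison described here set cells that carried a hairpin against DHX15 together with added MYC (shDHX15_MYC, 3 libraries) against cells that carried a control hairpin (shControl, 3 libraries). These are 6 of the 9 libraries of the series, and 15309 of the 17637 genes in its count table passed a filter on low counts and were tested. All groups are labelled wild type. Hairpins were delivered by lentivirus, and the table's columns name the control hairpin for GFP. The MYC given back was its coding region, and the sources used here give neither the promoter that drove it nor the time after transduction. The remaining 3 libraries, with the DHX15 hairpin alone (shDHX15), served to sort the genes by their place under the hairpin alone. They are a separate group, and the sample titles do not give the order in which hairpin and MYC were delivered. Words such as moved, went, held, came back and had been compare groups below and give no order in time. The columns give 1 hairpin number for both DHX15 groups, and cells with MYC added to the control hairpin are not analysed here. Effects of the added MYC, of lower DHX15, of this hairpin on other genes and of any difference in handling therefore cannot be told apart in shDHX15_MYC against shControl. Whether replicates came from separate cultures is not stated in the labels, and p-values therefore reflect no more than the spread among the libraries, which may be technical.

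DHX15 is a DEAH-box RNA helicase that takes spliceosomes apart once they have released the spliced message, and with other partners of the G-patch family it also works on ribosome precursors. MYC is a transcription factor that pairs with MAX, binds the E-box sequence CACGTG, and is known for raising genes of ribosome assembly, nucleotide synthesis and growth. In T-ALL, MYC is a well-known target of NOTCH1 and supports the growth of the leukaemic cells. The series' design text asks whether MYC acts downstream of DHX15. The comparison with the control hairpin asks what of the knockdown's changes were also present, and what lay past the control level, with MYC added.

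Each library held 42134302 to 50726272 counts in these 6 libraries, and replicate libraries of a group differed by more than sampling noise. The 3 shDHX15_MYC libraries stood apart from the other 6 on a first principal component that carried 84.9% of the variance. Mitochondrially encoded genes took 3.87% to 3.99% of the counts in shControl and 6.59% to 6.66% in shDHX15_MYC. MYC alone took 0.0101% to 0.0102% and 0.773% to 0.799%. Among the shDHX15 libraries, replicate 1 stood further from the other replicates than those did from each other. Levels below are CPM, the count of a gene scaled to equal library totals with TMM factors, and changes are log2 fold changes of shDHX15_MYC minus shControl unless the other comparison is named.

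DHX15 was below control with MYC added as well, and MYC was far above control. DHX15 (chromosome 4, 24517441 to 24584550, minus strand, GRCh38) stood at 284, 278 and 278 CPM in shControl and 197, 196 and 192 CPM in shDHX15_MYC, with 182, 162 and 156 CPM under the hairpin alone. The groups did not overlap. The message was 1.44-fold lower than in control (log2 fold change -0.52, SE 0.0438, adjusted p = 4.62e-09), so that -0.75 with the hairpin alone became -0.52 with MYC, a partial return called at an adjusted p of 1.24e-04. The change from control was -0.26 with total-count scaling and -0.20 when MYC and mitochondrial genes were also left out of the totals. MYC stood at 110.0, 109 and 109 CPM in shControl and 6922, 7174 and 7197 CPM in shDHX15_MYC, and at 85.3, 91.3 and 84.3 CPM under the hairpin alone. It was 64.9-fold above control (log2 fold change 6.02, SE 0.0298, adjusted p = 5.29e-24). Added and endogenous MYC are counted together, and the group is one with MYC in large excess, not one with MYC at its control level.

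**Figure D1:**
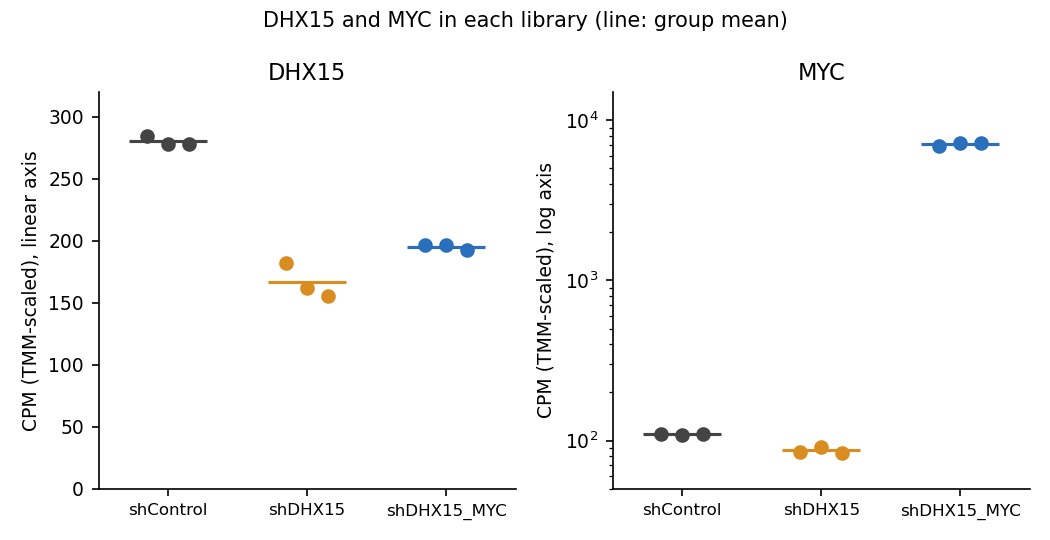
Level of DHX15 (left, linear axis from 0) and MYC (right, log axis) in TMM-scaled CPM for each of 9 libraries, with a line at each group mean. DHX15 in the 3 shDHX15_MYC libraries lies between 192 and 197 CPM, below all shControl libraries, and MYC lies between 6922 and 7197 CPM, above all of them.

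Most of the genes measured differed from control in shDHX15_MYC. A gene was called changed at an edgeR adjusted p under 0.05, and 12939 genes were called, 84.5% of those tested: 6437 higher (42.0%) and 6502 lower (42.5%). At least 2-fold changes were called for 3254 higher and 2223 lower genes (21.3% and 14.5%). The CPM ranges of the 2 groups did not overlap for 87.2% of genes. With 84.5% called, a call in itself says little about a gene, and sizes, directions and the share of a group that moved one way carry the description below. The median log2 fold change over all tested genes was 0.02. It was 0.28 when libraries were scaled by total counts alone, with 8128 genes called higher and 4893 lower, and 0.34 when MYC and the mitochondrially encoded genes were also left out of the totals. The direction of a gene or group below 0 by less than that shift therefore depends on the scaling, and changes are read here against the median of 0.02. That median differs with level: it was 1.31 for genes with a mean log2 CPM under 1 and -0.18 for those at 3 or more. Lists of abundant genes below control thus lie nearer to genes of their own level than to all genes.

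Of the 6886 genes that the hairpin alone had changed (45.0% of those tested), few were at control in shDHX15_MYC. The same held for all genes, of which 2370 of 15309 were not called. The 2 comparisons share the shControl libraries, so the counts that follow describe places and test nothing. Called again on the same side of control were 3246 genes (47.1%), referred to here as staying away: 1431 higher and 1815 lower (9.35% and 11.9% of tested genes). Of these, 2288 moved further from control with MYC, 696 held their place and 262 came partly back. Called on the opposite side of control were 2820 genes (41.0%), referred to as overshooting: 1294 that had been lower and were now higher, and 1526 that had been higher and were now lower (8.45% and 9.97% of tested genes). A further 708 genes (10.3%) moved back and were no longer called against control, and 112 were neither called nor moved back. Of genes higher under the hairpin, 42.6% stayed higher and 45.4% overshot. Of genes lower under it, 51.5% stayed lower and 36.7% overshot. Over all tested genes 42.0% were called higher and 42.5% lower, so most of these shares lie near those of any gene. The sizes differed too: only 460 genes were called and changed at least 2-fold by the hairpin alone, against 5477 in shDHX15_MYC. Of the 8423 genes that the hairpin alone had not changed, 6873 (81.6%) were called in shDHX15_MYC. The split of the genes that stay away depends on the scaling. With total-count scaling 2422 stayed away higher and 1029 lower, while 1246 and 1589 overshot higher and lower.

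**Figure D2:**
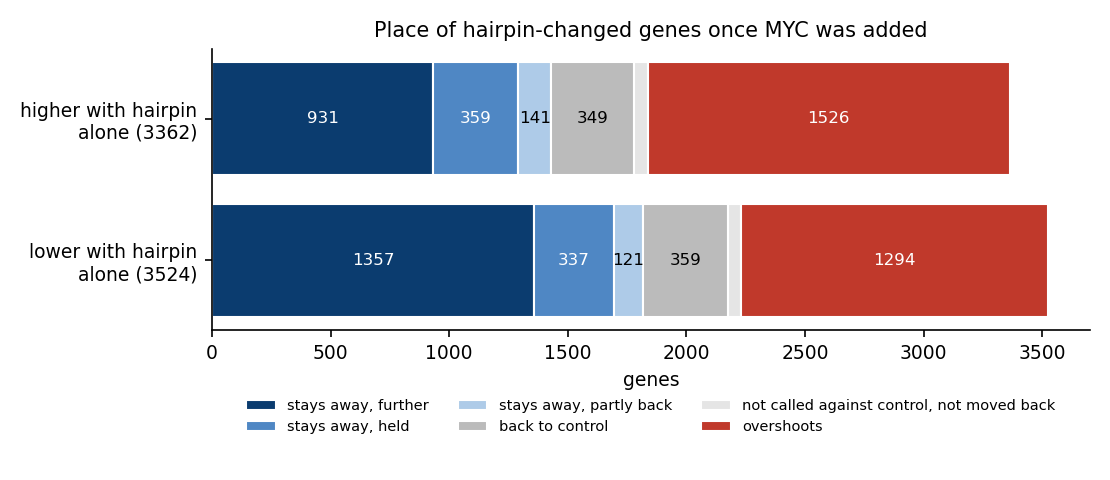
Number of genes called higher (top bar, 3362 genes) or lower (bottom bar, 3524 genes) with the DHX15 hairpin alone, divided by their place against shControl in shDHX15_MYC. The genes back at control, 349 and 359, are fewer than those that overshot, 1526 and 1294, or stayed away. Over all tested genes 42.0% were called higher and 42.5% lower in shDHX15_MYC.

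Ribosomal protein messages stayed away as a block. All 79 cytosolic ribosomal protein genes were lower in shDHX15_MYC than in shControl, 54 of them at least 2-fold, with a median of -1.15 (total-count scaling -0.89) beside -0.50 under the hairpin alone. Of these genes, 78 had been lower with the hairpin alone, and those 78 were lower with MYC. RPLP0, the stalk protein, went from 3989.9, 4032 and 4055 CPM in shControl to 2928, 2862 and 2836 under the hairpin and 1660.4, 1639.6 and 1686 with MYC (log2 fold change -1.28, SE 0.0235, adjusted p = 6.67e-18). RPS25, of the small subunit, went from 939, 901 and 940.2 to 647, 566 and 578 and then 197, 196 and 193 CPM (log2 fold change -2.25, SE 0.0407, adjusted p = 7.30e-18). In both genes the 3 groups did not overlap and fell in the same order. RPL3, RPL13A and RPS27 changed by -1.37, -1.70 and -2.09, and 0.326 of the windows of RPS27 are shared with other loci. Ribosomal protein genes have many processed copies in the genome. Of the 79, 17 share at least 0.2 of their sequence windows with another locus, and the median of the 62 others was -1.17. These others are not free of shared sequence: the shares were 0.1755 for RPLP0, 0.1667 for RPL13A and 0.1181 for RPL3. RPS15A, with a share of 0, changed by -2.04. How far shared sequence shaped the drop of this list was not tested.

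Elongation and initiation factors were mixed. EEF1A1, which brings tRNA to the ribosome, went from 14197, 14208 and 14276 to 5596, 5571 and 5665 CPM (log2 fold change -1.34, SE 0.0216, adjusted p = 1.22e-18), and 0.339 of its windows are shared with other loci. EEF1G, with 0.371 shared, a subunit of its exchange factor, had dropped to 512, 506 and 501 CPM under the hairpin from 1308, 1309 and 1309.8 in shControl and came partly back to 765, 782 and 787 with MYC (log2 fold change -0.75, SE 0.0252, adjusted p = 1.36e-14). EEF2, which moves the ribosome along and has no shared windows, changed little, at 4067, 4129 and 4100.1 CPM in shControl, 3078, 3532 and 3454 under the hairpin and 3719, 3766 and 3708 with MYC (log2 fold change -0.14, SE 0.0368, adjusted p = 0.0026), and turns higher with total-count scaling. EIF3E, not called under the hairpin alone, stood at 409, 394 and 389 CPM in shControl and 117, 123 and 124 CPM in shDHX15_MYC (log2 fold change -1.71, SE 0.0373, adjusted p = 5.72e-17). EIF4G1, the scaffold of the cap-binding complex, was higher, at 308, 299 and 295 CPM in shControl and 885, 871 and 890.5 CPM in shDHX15_MYC (log2 fold change 1.55, SE 0.0331, adjusted p = 4.52e-17). EIF5B rose by 1.59. Of 44 translation factors, 24 were higher and 16 lower (median 0.24).

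T-cell identity messages were mostly below control. Of 42 tested, 37 were lower, 25 of them at least 2-fold, and 3 were higher (the adaptor genes LAT and LCP2, and RUNX3, changed by 0.47, 0.69 and 1.69; these 3 were named after their values were seen). The median was -1.10, against -0.23 under the hairpin alone, and 23 of the 37 lower genes were also lower under the hairpin alone. DNTT, the polymerase that adds bases at the joints of antigen receptor genes in immature lymphocytes, had the largest drop of the genes named by rule. It stood at 101, 96.8 and 96.5 CPM in shControl, 50.3, 51.05 and 48.7 under the hairpin and 1.94, 2.13 and 1.41 with MYC, a level 53.4-fold lower than control (log2 fold change -5.74, SE 0.101, adjusted p = 2.06e-19). The CD1 genes, lipid-presenting molecules carried by cortical thymocytes, fell with it. CD1E went from 264, 255 and 264 to 144, 139 and 145 and then 12.3, 11.6 and 11.8 CPM (log2 fold change -4.45, SE 0.0411, adjusted p = 2.27e-21). CD1B went from 126, 128 and 131 to 8.31, 7.06 and 7.52 CPM (log2 fold change -4.08, SE 0.0556, adjusted p = 9.88e-20), and CD1C from 21.2, 21.8 and 23.9 to 5.42, 5.09 and 4.97 CPM (log2 fold change -2.11, SE 0.0873, adjusted p = 2.10e-13). The surface antigen CD99 went from 1624, 1636 and 1656 CPM to 384, 375 and 379 CPM (log2 fold change -2.11, SE 0.0254, adjusted p = 5.94e-20). TCF7, a transcription factor of T-cell commitment, and LCK, the kinase of the T-cell receptor, had log2 fold changes of -1.09 and -0.84. The T-ALL oncogenic factors NOTCH1 and MYB also fell, by 0.65 and 1.45 on the log2 scale.

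Other genes that stayed below control give the class its range. VIM, an intermediate filament gene that lymphoid cells also express, held its place: 1249, 1244 and 1241 CPM in shControl, 545, 614 and 622 under the hairpin and 599.5, 606 and 622 with MYC (log2 fold change -1.03, SE 0.0389, adjusted p = 7.21e-14). CISH, a feedback inhibitor of cytokine receptors, also held, at 451, 463 and 456 CPM in shControl, 223, 259 and 258 under the hairpin and 249, 248 and 239 with MYC (log2 fold change -0.89, SE 0.045, adjusted p = 3.86e-12). FHIT, a diadenosine triphosphate hydrolase, moved on down, at 34.9, 33.6 and 32.8 CPM in shControl, 12.9, 12.4 and 10.6 under the hairpin and 4.54, 4.64 and 5.68 with MYC (log2 fold change -2.77, SE 0.0936, adjusted p = 1.21e-14). LCT, the lactase gene, stood at 29.4, 31.2 and 28.1 CPM in shControl, 14.1, 13.3 and 15.8 under the hairpin and 7.64, 8.8 and 7.71 with MYC (log2 fold change -1.87, SE 0.082, adjusted p = 4.92e-13). STX10, a syntaxin of the Golgi, stood at 100.1, 100.3 and 104 CPM in shControl, 56.4, 55.6 and 51.7 under the hairpin and 30.1, 31.6 and 33.99 with MYC (log2 fold change -1.67, SE 0.0494, adjusted p = 2.78e-15). The constitutive chaperone gene HSPA8 came partly back, at 2368, 2322 and 2342 CPM in shControl, 923, 898 and 908 under the hairpin and 1488, 1473 and 1479 with MYC (log2 fold change -0.66, SE 0.0238, adjusted p = 3.47e-14).

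Nuclear genes of the respiratory chain stayed below control in smaller steps. Of 63, 44 were lower and 10 higher, with a median of -0.43 (-0.16 with total-count scaling), and 31 of the lower ones had been lower under the hairpin as well. COX5B, of cytochrome c oxidase, went from 83.96, 86.2 and 87.99 to 70.1, 61.9 and 67.2 and 23.6, 21.7 and 23.9 CPM (log2 fold change -1.90, SE 0.0531, adjusted p = 1.24e-15), and ATP5G2, of the ATP synthase ring, from 221, 216 and 227 CPM to 71.5, 73.96 and 75.6 CPM (log2 fold change -1.59, SE 0.0408, adjusted p = 4.52e-16). Mitochondrially encoded genes moved in the opposite direction. Among the 13 tested, 9 were higher and 2 lower (MT-CO1 at -0.12 and MT-CO2 at -0.13, both of which turn higher with total-count scaling), with a median of 0.83, and 7 of the 9 had been lower under the hairpin. MT-ND1, a subunit of complex I, stood at 674, 663 and 667 CPM in shControl and 2488, 2534 and 2576 CPM in shDHX15_MYC (log2 fold change 1.92, SE 0.0267, adjusted p = 2.62e-19). Of these 13 genes, 2 share at least 0.2 of their windows with other loci, and all 13 belong to the 6.59% to 6.66% of counts given above.

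**Figure D3:**
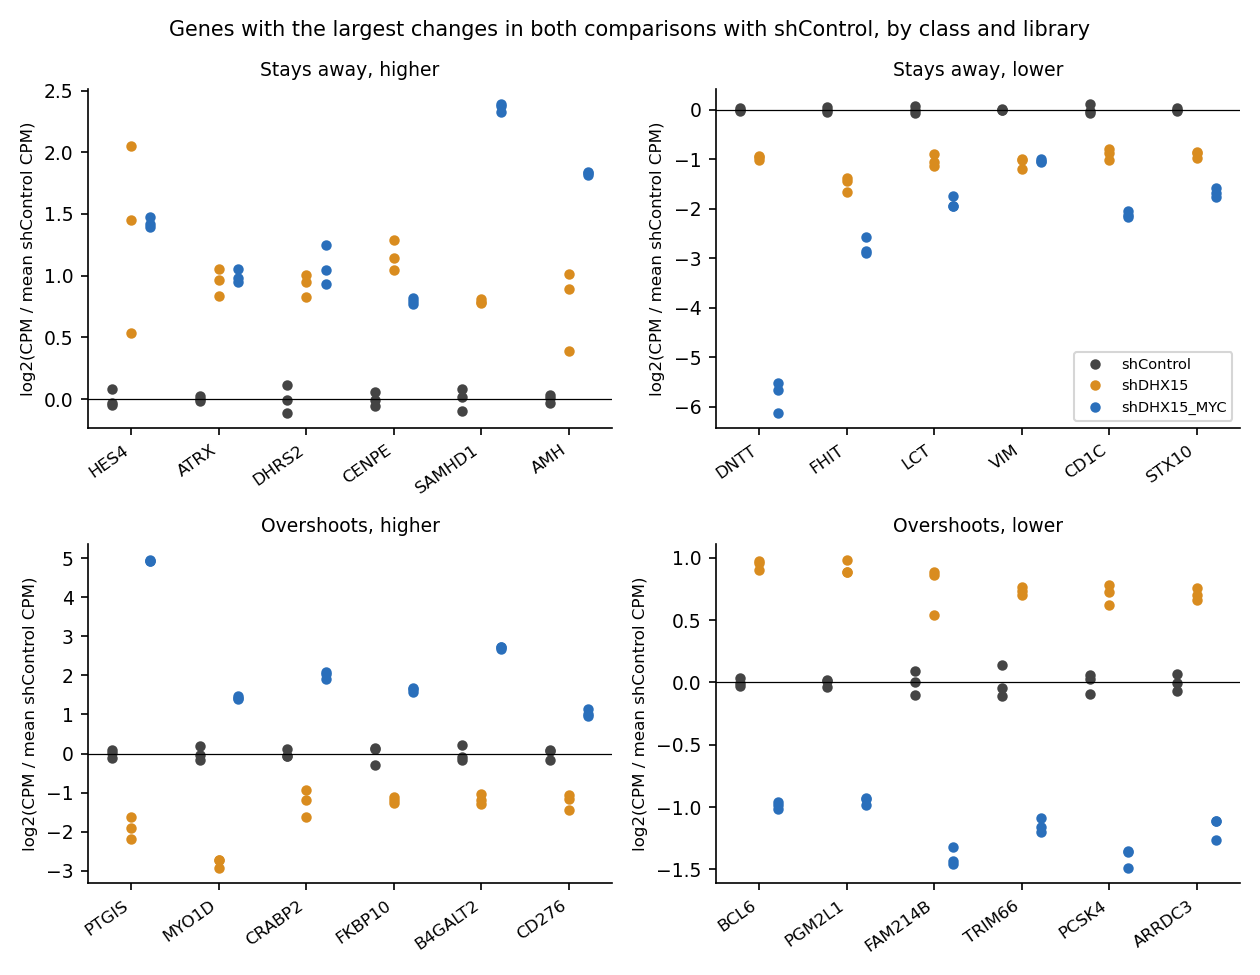
Level of the 24 genes named for the 4 classes in each library, as log2 of the CPM over the mean shControl CPM, coloured by group. In the lower panels the shDHX15 and shDHX15_MYC points lie on opposite sides of the shControl points at 0, and in the upper panels on the same side.

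The 6 genes named for staying above control follow. HES4, a HES-family repressor and a NOTCH target in human T-ALL, stood at 11.9, 11.8 and 12.8 CPM in shControl and 32.6, 33.8 and 31.9 with MYC (log2 fold change 1.43, SE 0.233, adjusted p = 2.16e-05). Its shDHX15 libraries spread from 17.7 to 50.4 CPM. ATRX, a chromatin remodeller, held at 98.7, 103 and 96.2 CPM with shControl at 49.8, 50.7 and 49.3 CPM (log2 fold change 0.99, SE 0.0489, adjusted p = 2.69e-12). The kinetochore motor gene CENPE came partly back, from 59.6, 53.99 and 50.5 CPM under the hairpin to 41.7, 43.2 and 42.3, with shControl at 24.3, 23.6 and 25.5 CPM (log2 fold change 0.79, SE 0.0595, adjusted p = 9.36e-10). SAMHD1, which breaks down deoxynucleotides, went from 3.69, 3.87 and 3.41 to 6.26, 6.4 and 6.3 and on to 19.1, 18.9 and 18.3 CPM (log2 fold change 2.36, SE 0.0877, adjusted p = 4.36e-14). AMH, the anti-Mullerian hormone gene, stood at 19.8, 19.3 and 20.1 CPM in shControl and 70.4, 70.4 and 69.2 CPM in shDHX15_MYC (log2 fold change 1.83, SE 0.104, adjusted p = 2.04e-11), and DHRS2 changed by 1.08.

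Chaperone genes were mostly above control. Of 32 heat shock chaperone and chaperonin genes, 27 were higher and 4 lower (HSPA8 and, named after their values were seen, HSPB1, DNAJB6 and DNAJA2, of which DNAJA2, at -0.10, turns higher with total-count scaling), with a median of 0.63. Of the higher ones, 10 had been higher and 10 lower under the hairpin. HSPA6, an inducible heat shock gene, went from 3.38, 3.16 and 3.86 to 8.86, 9.03 and 9.86 and 156, 163 and 165 CPM (log2 fold change 5.54, SE 0.0741, adjusted p = 3.04e-20), although 0.261 of its windows are shared with related genes. HSPH1, a nucleotide exchange factor of that family with no shared windows, went from 92.8, 88.7 and 88.4 CPM to 327, 324 and 338 CPM (log2 fold change 1.87, SE 0.033, adjusted p = 4.29e-18). HSP90AA1 went from 738, 724 and 727 CPM to 1829, 1857 and 1826 CPM (log2 fold change 1.33, SE 0.0253, adjusted p = 9.88e-18). The endoplasmic reticulum chaperone HSPA5 was higher as well, at 169, 168 and 172 CPM in shControl and 488, 499 and 507 CPM in shDHX15_MYC (log2 fold change 1.55, SE 0.0289, adjusted p = 8.12e-18), though its list of 25 genes split into 11 higher and 11 lower.

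Amino acid supply genes were above control. ATF4 is the transcription factor that cells make more of when amino acids run short or ribosomes stall, and its targets import amino acids and charge tRNA. Of 37 genes of this response 28 were higher and 6 lower (median 0.85), and of 20 cytosolic aminoacyl-tRNA synthetase genes 17 were higher and 2 lower (median 0.71; the lower ones, KARS and QARS, changed by -0.22 and -1.04, KARS comes to 0.05 and is no longer called with total-count scaling, and both were named after their values were seen). The ATF4 message itself stood at 492, 508 and 497 CPM in shControl and 838, 854 and 863 CPM in shDHX15_MYC (log2 fold change 0.77, SE 0.0272, adjusted p = 2.71e-14). SLC7A5 and SLC3A2, the light and heavy chains of the large neutral amino acid transporter, stood at 179, 179 and 178 CPM in shControl and 858, 853 and 835 CPM in shDHX15_MYC (log2 fold change 2.25, SE 0.0365, adjusted p = 1.78e-18) and at 138, 139 and 133 CPM in shControl and 690.5, 687 and 707 CPM in shDHX15_MYC (log2 fold change 2.35, SE 0.0303, adjusted p = 1.21e-19). CHAC1, which degrades glutathione, went from 2.67, 2.1 and 2.43 CPM to 19.2, 17.1 and 17.9 CPM (log2 fold change 2.91, SE 0.117, adjusted p = 9.58e-14). WARS, the tryptophan synthetase, went from 31.1, 29.9 and 28.5 CPM to 122, 121 and 121 CPM (log2 fold change 2.02, SE 0.0422, adjusted p = 3.17e-17).

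Ribosome assembly genes, the longest list, held the largest number of genes overshooting above control, while the ribosomal proteins themselves were lower. As a share, 42 of 99 overshot here, fewer than the 30 of 58 MYC-induced and 7 of 13 mitochondrially encoded genes. Of 99 biogenesis genes 86 were higher, 45 of them at least 2-fold, and 8 were lower, against 42.0% and 42.5% of all genes. The median was 0.92 beside -0.12 under the hairpin alone, where 42 of the 86 were called lower. RRP12, which exports the pre-40S particle, went from 33.9, 29.8 and 31.2 CPM to 267, 265 and 272 CPM (log2 fold change 3.08, SE 0.0417, adjusted p = 2.09e-19). RPF2, of the 5S particle, had been slightly lower under the hairpin, at 12.4, 10.4 and 10.7 CPM, and went from 13.99, 13.9 and 13.6 in shControl to 74.1, 71.3 and 70.1 with MYC (log2 fold change 2.37, SE 0.0613, adjusted p = 4.33e-16). NOP56, a core protein of box C/D particles, went from 244, 244 and 233 CPM to 500.1, 490.3 and 496 CPM (log2 fold change 1.04, SE 0.0296, adjusted p = 1.51e-15). NCL, the nucleolin gene, had been higher already and rose from 631, 622 and 646 CPM to 1042, 1047 and 1079.8 CPM (log2 fold change 0.74, SE 0.0279, adjusted p = 7.07e-14). The RNA polymerase I subunits POLR1B and POLR1C rose by 1.24 and 1.41, while POLR1D fell by 0.72 on the log2 scale.

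Promoter windows of these genes often carried the E-box. RefSeq promoter windows, from 250 bases before to 50 after the annotated start (GRCh38.p14), were found for 84 of the 99 biogenesis genes, and 34 of the 84 (40.5%) held CACGTG, which reads the same on both strands. For the 58 MYC-induced genes, 26 of which are also in the biogenesis list, 48 had a window and 27 (56.2%) held it. The MYC-induced list gathers genes already known as MYC targets, so its share describes the list and tests nothing. Over all RefSeq windows, 7.26% of 35116 and 8.77% of 27305 genes held it, as did 12.2% of the 12004 tested genes with a window, which are only 78.4% of tested genes. Other lists ranged widely: the motif was in 2 of 33 proteasome genes (6.06%), 5 of 42 mitosis genes (11.9%), 10 of 41 SR and hnRNP genes (24.4%), 9 of 35 nucleotide and polyamine synthesis genes (25.7%) and 8 of 27 glycolysis and HIF1 genes (29.6%), the list with the lowest median fold change. A match describes the letters in the window and does not show that MYC binds there. The motif did not go with a rise in every gene: PWP2, NOP10, DDX54 and FBL held it and were called lower (-1.35, -0.60, -0.32 and -0.16; named after their values were seen), FBL turning higher and DDX54 losing its call with total-count scaling. Motifs too near a window edge to print 30 bases were left out of the choice that follows. Among the other biogenesis genes with the motif, the 6 with the highest fold change are given as 30 bases on the gene's strand. The E-box is in capitals, and the place of its first base is given from the start site as 1. These 6 genes were chosen after their values were seen, to show where the motif lies in strongly raised genes. PWP2, a motif-bearing gene that fell, stands beside them. The windows are those of ESF1 (chr20:13784890-13784919, minus strand, position 13, changed by 2.47), PNO1 (chr2:68157885-68157914, plus, position 10, 2.15), GNL2 (chr1:37595917-37595946, minus, position 4, 2.10), DDX21 (chr10:68956604-68956633, plus, position -31, 2.02), DIEXF (chr1:209827974-209828003, plus, position 15, 1.96), DDX31 (chr9:132669988-132670017, minus, position -22, 1.93) and PWP2 (chr21:44107388-44107417, plus, position 2).
ESF1: gggtgtgagcccCACGTGaggcttggtagg
PNO1: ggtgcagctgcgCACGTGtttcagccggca
GNL2: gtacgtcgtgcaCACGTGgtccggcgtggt
DDX21: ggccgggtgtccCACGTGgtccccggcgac
DIEXF: agtcagcgagccCACGTGcttgtgttgact
DDX31: cctcgcgcgtccCACGTGgggtcccgggcc
PWP2: tgagctgcggcaCACGTGcgacggccgtga

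The wider set of MYC-induced genes was above control but not as a whole. Of 58, 42 were higher and 11 lower (median 0.74, -0.20 under the hairpin), with 30 overshooting. SRM, the spermidine synthase gene, went from 39.7, 39.3 and 42.5 CPM in shControl to 10.2, 11.9 and 10.9 under the hairpin and 68.3, 72.97 and 74.00 with MYC (log2 fold change 0.82, SE 0.0552, adjusted p = 2.04e-10; named after its values were seen). NME1, a nucleoside diphosphate kinase, went from 58.03, 57.1 and 56.96 to 35.8, 34.5 and 32.9 and then 188, 189 and 193 CPM (log2 fold change 1.73, SE 0.0367, adjusted p = 4.08e-17). CCND2, a cyclin of the G1 phase, went from 6.14, 5.81 and 6.61 CPM to 28.6, 28.5 and 28.9 CPM (log2 fold change 2.21, SE 0.0878, adjusted p = 1.26e-13). Several textbook targets lay below control instead. LDHA, lactate dehydrogenase, went from 1635, 1614 and 1639 to 1424, 1327 and 1310.0 and 499, 516 and 523 CPM (log2 fold change -1.67, SE 0.0316, adjusted p = 1.09e-17), and ENO1, an enolase, from 4464, 4472 and 4459 CPM to 2651, 2624 and 2619 CPM (log2 fold change -0.76, SE 0.0218, adjusted p = 1.66e-15). TERT, the telomerase reverse transcriptase gene, went from 3.27, 3.45 and 3.54 CPM to 0.802, 0.704 and 0.642 CPM (log2 fold change -2.25, SE 0.183, adjusted p = 1.60e-09). The 30 MYC-repressed genes split into 11 higher and 17 lower, and their median, -0.16, turned to 0.10 with total-count scaling. The MYC antagonist MXD4 fell by 1.41 and MXD3 by 0.76 on the log2 scale.

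Proteasome genes had a lower median. Of 39, 27 were higher and 8 lower (median 0.34), and 14 of the higher ones had been lower under the hairpin. The ubiquitin receptor gene ADRM1 went from 61.5, 62.96 and 60.6 CPM to 180.0, 175 and 176 CPM (log2 fold change 1.52, SE 0.0422, adjusted p = 1.18e-15) and the lid subunit gene PSMD3 from 140.2, 146 and 137 CPM to 309.5, 310.1 and 306 CPM (log2 fold change 1.13, SE 0.043, adjusted p = 8.63e-14). Neither had been called under the hairpin.

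The 6 genes named for the overshooting class above control, chosen for large changes in both comparisons, follow. PTGIS, prostacyclin synthase, went from 12.1, 11.5 and 10.5 CPM in shControl to 2.5, 3.68 and 3.03 under the hairpin and 342, 352 and 347 with MYC, 30.7-fold above control (log2 fold change 4.94, SE 0.0636, adjusted p = 8.64e-20), and lies at chromosome 20, 49503874 to 49568146, minus strand. MYO1D, an unconventional myosin, went from 6.05, 7.06 and 5.48 to 0.811, 0.934 and 0.933 and 16.7, 16.4 and 17.1 CPM (log2 fold change 1.44, SE 0.0973, adjusted p = 2.29e-10). B4GALT2, a galactosyltransferase, went from 5.63, 4.53 and 4.33 to 1.98, 2.13 and 2.37 and 32.03, 31.1 and 32.1 CPM (log2 fold change 2.72, SE 0.0937, adjusted p = 1.69e-14). CRABP2, a retinoic acid carrier, FKBP10, a collagen prolyl isomerase, and CD276, an immune checkpoint ligand, rose by 2.02, 1.64 and 1.03 after changes of -1.22, -1.18 and -1.21 under the hairpin.

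Mitotic genes were mostly below control, and some of them overshot. Of 49, 29 had been higher under the hairpin (median 0.22). In shDHX15_MYC 36 were lower and 8 higher, with a median of -0.51 (-0.24 with total-count scaling), and 17 of the 49 had crossed from above control to below it. TOP2A, topoisomerase II alpha, went from 655, 644 and 641 CPM in shControl to 818, 759 and 756 under the hairpin and 456, 449 and 441 with MYC (log2 fold change -0.53, SE 0.0321, adjusted p = 5.35e-11). TPX2, a spindle assembly factor, went from 381, 372 and 379 to 479, 471 and 478 and 302, 296 and 304 CPM (log2 fold change -0.33, SE 0.0275, adjusted p = 4.39e-09), a drop that came to -0.01 and lost its call when MYC and mitochondrial genes were left out of total counts. CDC25B, a phosphatase that opens mitosis, went from 416, 413 and 414 CPM to 142, 133 and 136 CPM (log2 fold change -1.60, SE 0.0427, adjusted p = 7.72e-16). The proliferation marker gene MKI67 was slightly higher instead, at 677, 672 and 667 CPM in shControl and 757, 766 and 778 CPM in shDHX15_MYC (log2 fold change 0.19, SE 0.0287, adjusted p = 9.00e-06). Among 50 genes of DNA replication 36 were lower and 11 higher, and their median of -0.31 came to 0.01 when MYC and the mitochondrial genes were left out of total counts. PRIM1, a primase subunit, and CDT1, a licensing factor, fell by 1.48 and 1.22 on the log2 scale, and the helicase gene MCM7 rose by 0.69.

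Single genes of several lists, and the 6 genes named for the class, also crossed from above to below control. BCL6, a repressor of lymphocyte differentiation genes, went from 19.3, 18.9 and 19.9 CPM in shControl to 38.1, 37.5 and 36.3 under the hairpin and 9.94, 9.6 and 9.79 with MYC (log2 fold change -0.99, SE 0.0609, adjusted p = 6.03e-11). NOTCH3, a NOTCH receptor, went from 89.1, 93.1 and 98.02 to 123, 148 and 137 and 10.7, 11.6 and 11.7 CPM (log2 fold change -3.05, SE 0.0683, adjusted p = 5.46e-17). RBL2, a pocket protein related to RB, went from 295, 294 and 289 to 364, 344 and 332 and 71.5, 75.6 and 68.6 CPM (log2 fold change -2.03, SE 0.0399, adjusted p = 1.67e-17). SREBF1, a regulator of lipid synthesis, and SCD, a fatty acid desaturase, fell by 0.89 and 0.69 on the log2 scale after changes of 0.32 and 0.50 under the hairpin. PGM2L1, which makes glucose bisphosphate, went from 30.8, 32.1 and 31.97 to 58.3, 62.5 and 58.4 and 16.5, 15.98 and 16.6 CPM (log2 fold change -0.95, SE 0.0526, adjusted p = 1.33e-11). ARRDC3, an arrestin-like adaptor, TRIM66, FAM214B and PCSK4 changed by -1.16, -1.15, -1.40 and -1.40.

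Glycolysis had the lowest median of the 36 gene lists that are not cell type markers, after mixed changes under the hairpin alone. Of 32 glycolysis genes and targets of the hypoxia factor HIF1, 29 were lower, 23 of them at least 2-fold, and 2 higher (PKM at 0.29 and SLC16A1 at 0.64, the second named after its values were seen). The median was -1.30, against -0.01 under the hairpin, where 8 were higher and 9 lower. GAPDH stood at 6242, 6306 and 6308 CPM in shControl and 2861, 2872 and 2877 CPM in shDHX15_MYC (log2 fold change -1.13, SE 0.0209, adjusted p = 6.82e-18). ALDOC, an aldolase, went from 124, 122 and 122 CPM to 11.5, 12.6 and 13.04 CPM (log2 fold change -3.31, SE 0.0488, adjusted p = 3.08e-19). BNIP3 and BNIP3L, mitophagy receptors induced by hypoxia, went from 296, 287 and 283 CPM to 29.00, 30.1 and 30.8 CPM (log2 fold change -3.27, SE 0.0351, adjusted p = 1.90e-20) and from 203, 202 and 209.6 CPM to 24.1, 22.3 and 20.1 CPM (log2 fold change -3.20, SE 0.0497, adjusted p = 8.30e-19).

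Antigen presentation genes of MHC class I were lowered as well. Of 16 genes 15 were lower and 0 higher, with a median of -1.08 beside -0.09 under the hairpin, where 8 had been lower. The adjusted p of each call is from edgeR's quasi-likelihood test. B2M, the light chain, went from 2109, 2092 and 2084 CPM to 862, 893 and 899 CPM (log2 fold change -1.24, SE 0.0368, adjusted p = 2.86e-15). HLA-E went from 946, 941 and 946 CPM to 295, 299.5 and 300.3 CPM (log2 fold change -1.66, SE 0.0269, adjusted p = 1.41e-18) and HLA-F from 28.2, 26.2 and 27.2 CPM to 7.07, 7.27 and 7.17 CPM (log2 fold change -1.92, SE 0.0672, adjusted p = 2.04e-14). ERAP1, which trims the peptides, fell by 1.48 on the log2 scale. HLA genes are highly alike and polymorphic, so reads of one may have been counted for another.

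**Figure D4:**
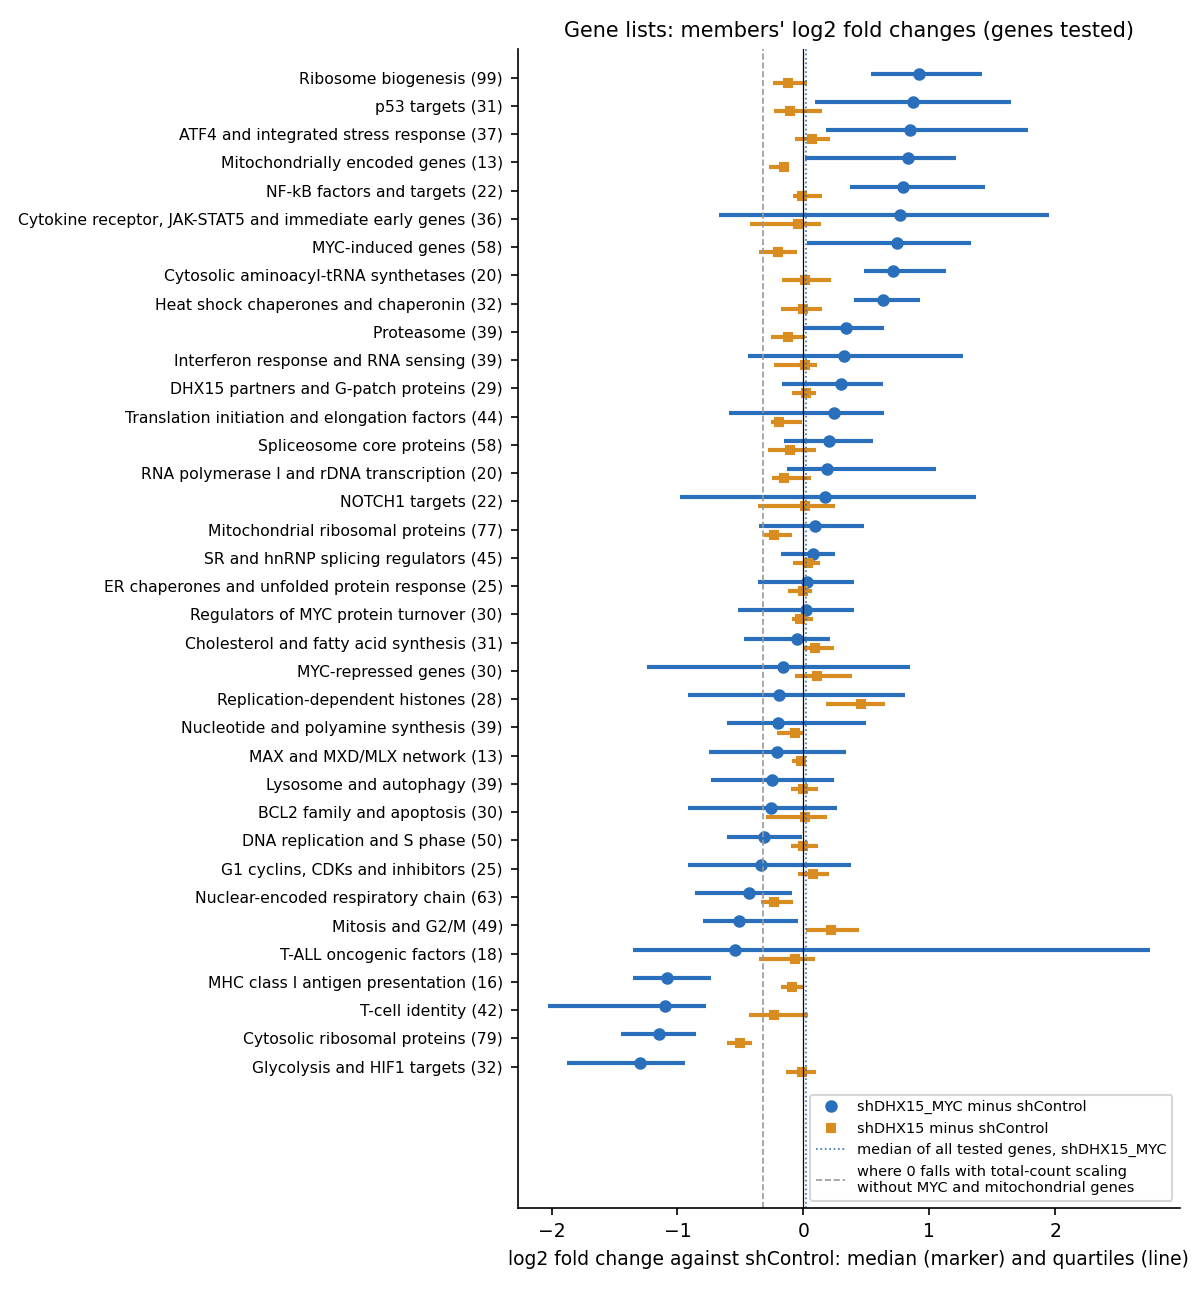
Median (marker) and quartiles (line) of the members' log2 fold change against shControl for 36 gene lists, in shDHX15_MYC (circles) and under the hairpin alone (squares); both comparisons use the same shControl libraries. Ribosome biogenesis (0.92) and cytosolic ribosomal proteins (-1.15) lie near opposite ends, and lists whose circle lies between the dashed line and 0 change sign with the scaling.

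Stress and signalling genes were mostly higher. Of 31 targets of p53, 23 were higher and 7 lower (median 0.87), after 6 had been higher and 13 lower under the hairpin. CDKN1A, an inhibitor of cyclin-dependent kinases, went from 114, 116 and 110.4 CPM to 668, 661 and 670.5 CPM (log2 fold change 2.55, SE 0.0489, adjusted p = 1.58e-17), and GADD45A, a DNA damage response gene, from 16.7, 17.5 and 17.2 CPM to 122, 121 and 131 CPM (log2 fold change 2.87, SE 0.0603, adjusted p = 3.47e-17). MDM2, which degrades p53, rose by 1.40, while DDB2 and TP53INP1 fell by 1.70 and 1.79 on the log2 scale (both named after their values were seen). Of 22 NF-kB factors and targets 17 were higher and 2 lower (SOD2 and BCL2A1, named after their values were seen; median 0.79). BCL3, an NF-kB cofactor, went from 1.11, 1.46 and 1.39 CPM to 20.7, 18.5 and 19.4 CPM (log2 fold change 3.89, SE 0.144, adjusted p = 1.58e-14), and LTB, lymphotoxin beta, from 104, 112 and 105 to 55.8, 73.03 and 73.8 under the hairpin and 177, 184 and 182 with MYC (log2 fold change 0.76, SE 0.0705, adjusted p = 1.91e-08). FOSL1, an AP-1 factor, went from 0.956, 1.27 and 1.07 CPM to 20.8, 21.5 and 21.6 CPM (log2 fold change 4.28, SE 0.172, adjusted p = 3.15e-14). Of 36 cytokine receptor, JAK-STAT5 and immediate early genes 22 were higher and 11 lower, STAT5A and IL2RG among the lower at -1.15 and -0.80.

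Splicing genes, the closest to DHX15 itself, had small medians. Of 58 core spliceosome genes 33 were higher and 17 lower (median 0.20), and 5 rose and 4 fell at least 2-fold. BCAS2, of the PRP19 complex, went from 18.5, 17.7 and 17.8 CPM to 72.8, 70.05 and 72.4 CPM (log2 fold change 1.99, SE 0.0492, adjusted p = 2.39e-16), and CWC22, which recruits the exon junction complex, from 17.1, 15.7 and 17.6 to 23.02, 22.7 and 21.7 and 39.8, 43.5 and 43.5 CPM (log2 fold change 1.33, SE 0.0611, adjusted p = 1.03e-12). Among 29 partners of DHX15 and G-patch proteins 20 were higher and 8 lower (median 0.30). GPATCH4, a nucleolar G-patch protein gene, went from 23.5, 21.1 and 20.7 to 14.1, 15.8 and 15.03 under the hairpin and 87.03, 84.97 and 89.6 with MYC (log2 fold change 2.00, SE 0.0559, adjusted p = 1.29e-15), and SUGP2 from 447, 435 and 433 to 488, 510.4 and 502 and 167, 159 and 169.9 CPM (log2 fold change -1.41, SE 0.0323, adjusted p = 1.04e-16). U2AF1, the 3' splice site factor, was far lower, from 90.2, 93.6 and 94.7 CPM to 3.5, 3.95 and 3.36 CPM (log2 fold change -4.68, SE 0.0672, adjusted p = 7.89e-20), but 0.903 of its windows are also found at another locus.

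That value for U2AF1 belongs to a pattern that ran through the table. For each gene, 100-base windows were taken every 50 bases along its transcripts, and the share of windows found also in a gene at another locus was noted. Genes with a share of 0.8 or more (80 genes) had a median of -2.85, and 82.5% of them were at least 2-fold lower, against 14.5% of all genes. The median was -1.12 for shares of 0.5 to 0.8 (90 genes), -0.55 for 0.2 to 0.5 (170 genes), -0.06 for lower shares above 0 (983 genes) and 0.05 with no shared window (13226 genes). Under the hairpin alone the same 5 bins had medians between -0.02 and 0.07. Whether reads that fit several places were treated differently in the shDHX15_MYC libraries was not tested. Drops in genes with much shared sequence, U2AF1 and HNRNPA1 (-1.21, 0.453 shared) among them, are uncertain. The same holds for the 17 ribosomal protein genes with a share of at least 0.2.

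**Figure D5:**
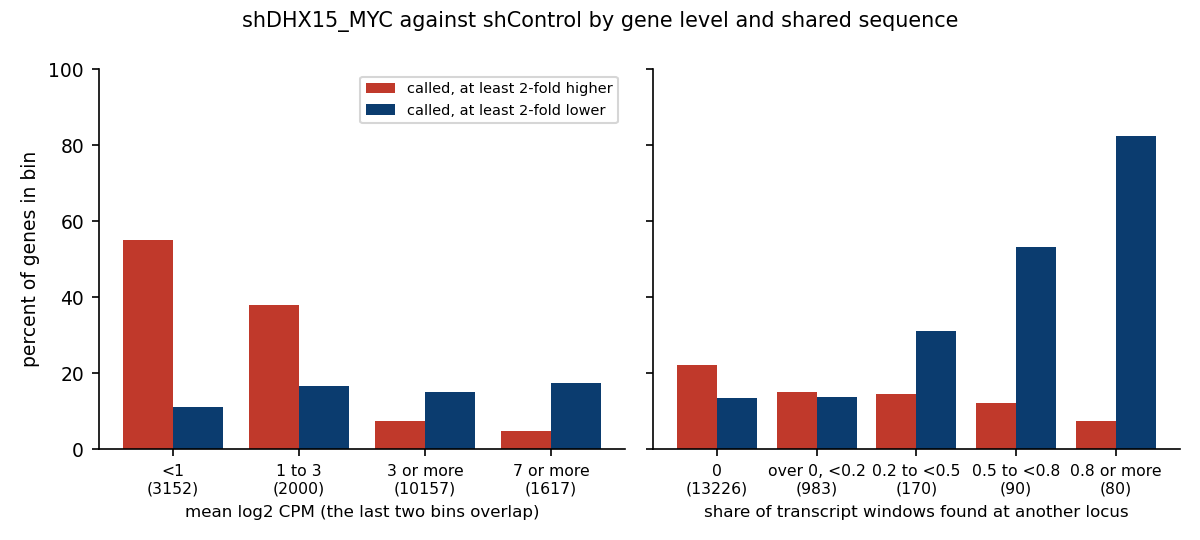
Percent of genes called and at least 2-fold higher (red) or lower (blue) in shDHX15_MYC against shControl, by mean log2 CPM (left) and by the share of transcript windows found at another locus (right); gene numbers in brackets, bars start at 0. At least 2-fold higher genes make up 55.2% of those under a mean log2 CPM of 1 and 7.41% of those at 3 or more, and at least 2-fold lower genes 82.5% of those with the most shared sequence. Genes at low levels can pass the count filter through 1 group alone, which favours large changes in the left bins.

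The level of a gene went with its direction as well. Of 3152 genes with a mean log2 CPM under 1, 1739 (55.2%) were at least 2-fold higher and 350 (11.1%) at least 2-fold lower, with a median of 1.31. The count filter passes a gene that reaches its limit in 1 group alone. Genes at these low levels may therefore be tested only because they are high in 1 group, which favours large changes. How far this shaped the 2 shares was not tested. Of 10157 genes at 3 or more, 34.8% were called higher and 53.2% lower, and 753 (7.41%) were at least 2-fold higher and 1539 (15.2%) lower, with a median of -0.18. The size of this excess of lower genes changes with the scaling. Refitted and rescaled alone, the 10157 genes gave 4530 higher and 4378 lower, with a median of 0.02. At least 2-fold higher and lower were 1075 and 1040. TMM scaling centres the changes of the genes it is given, so a near-even split follows from the refit itself. The source of the excess was not tested. Counts were found for 16177 to 16248 genes in the shControl libraries and for 16778 to 16805 in shDHX15_MYC, although the latter were less deep. Markers of other cell types moved too, and their part in the results was not tested. Some tested markers were at or near the floor in shControl, such as PAX5, with means of 0.13 CPM there and 0.44 CPM in shDHX15_MYC. SPI1 and SLC4A1 had a mean of 0 CPM in shControl. Such markers passed the filter through the group where they are high. The counts of higher and lower tested markers below are therefore partly set by the filter and describe only. Of 16 tested adherent and packaging cell markers (22 in the list) 11 were higher and 4 lower, with WWTR1 and YAP1, cofactors of the Hippo pathway, going from means of 1.19 and 1.48 CPM to 16.9 and 9.36, and KRT18, a keratin, from 6.37 to 15.9. Their summed level nevertheless went from 1342 to 1349 CPM down to 783 to 811, since VIM makes up most of it. The collagen gene COL1A1 went from a mean of 1.56 to 3.38 CPM, while COL1A2 was at 0 in all shControl libraries and reached at most 0.129 CPM in shDHX15_MYC. NK cell markers summed to 39.6 to 43.9 CPM in shControl and 122 to 126 in shDHX15_MYC, chiefly NKG7 (29.3, 33.9 and 32.8 CPM in shControl and 103, 96.7 and 97.4 CPM in shDHX15_MYC), with PRF1 and EOMES at means of 2.51 and 5.58 in shControl and 9.21 and 11.3 in shDHX15_MYC. Of 6 tested NK markers 4 were at least 2-fold higher and 0 lower, while KLRD1 and KLRF1, not tested, stayed under 0.2 CPM. Summed B-cell markers went from 170 to 171 down to 112 to 115 CPM, which hides members going both ways: CR2 fell from a mean of 112 to 5.04 CPM, CD79A rose from 40.2 to 99.8 CPM, and of 8 tested 4 were higher and 3 lower. Summed myeloid markers went from 99.9 to 102 down to 47.8 to 52.02 CPM through AIF1 (mean 87.7 to 28.5 CPM), while 5 of 7 tested were higher, CD14 (0.365 to 2.73 CPM) and ITGAM (0.355 to 3.35 CPM) among them, and 1 lower. Erythroid and megakaryocyte markers went from 8.57 to 10.5 down to 6.25 to 7.17 CPM through EPOR (mean 8.20 to 3.05 CPM), while 3 of 6 tested were higher, ITGA2B (0.621 to 1.96 CPM) among them, and 2 lower. T-cell identity genes, at 11062 to 11100 CPM in shControl, were still at 5489 to 5577 CPM in all shDHX15_MYC libraries, with CD3E at 359, 367 and 368 CPM (-0.82).

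The 10 highest genes by the naming rule, MYC and PTGIS among them, were low in control cells apart from MYC. COL6A3, a collagen VI chain, went from 5.05, 5.45 and 5.48 CPM to 92.3, 89.7 and 89.7 CPM (log2 fold change 4.09, SE 0.0708, adjusted p = 1.67e-18). HMOX1, heme oxygenase, went from 2.05, 1.6 and 2.39 to 0.832, 1.14 and 1.02 under the hairpin and 31.5, 31.5 and 32.5 with MYC (log2 fold change 3.97, SE 0.12, adjusted p = 1.24e-15). AOC3 and AOC2, amine oxidase genes next to each other, went from 2.05, 1.82 and 1.73 CPM to 37.8, 37.6 and 40.1 CPM (log2 fold change 4.37, SE 0.108, adjusted p = 6.56e-17) and from 2.49, 1.2 and 2.39 CPM to 34.9, 33.7 and 35.7 CPM (log2 fold change 4.09, SE 0.156, adjusted p = 2.60e-14). DMKN, HDC, which makes histamine, SLC6A15, an amino acid transporter, and WNK4, a kinase, rose by 3.93, 3.90, 3.87 and 3.86. At the other end, and apart from DNTT and the CD1 genes, ARPP21 went from 56.97, 61.8 and 57.3 CPM to 2.85, 2.82 and 2.21 CPM (log2 fold change -4.48, SE 0.0908, adjusted p = 4.16e-18) and CR2, complement receptor 2, from 114, 111 and 110.3 CPM to 6.23, 4.51 and 4.39 CPM (log2 fold change -4.47, SE 0.0829, adjusted p = 2.07e-18). MZB1, a chaperone of the secretory pathway, went from 304, 299 and 302 CPM to 20.8, 21.6 and 21.2 CPM (log2 fold change -3.83, SE 0.0369, adjusted p = 5.91e-21). MYO7B, an unconventional myosin that was abundant in control cells, went from 1284, 1315 and 1299 CPM to 102, 99.03 and 100.3 CPM (log2 fold change -3.69, SE 0.039, adjusted p = 2.43e-20), and lies at chromosome 2, 127535802 to 127637729, plus strand. ADGRG1, PPFIA4 and ANXA2R changed by -3.93, -3.70 and -3.67.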

How the data were processed

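The 9 libraries were RNA-seq of KOPTK1 cells, and the authors deposited 1 table of raw counts per gene for 17637 genes. Per the submitters' processing notes the tools were FastQC 0.11.9, HISAT2 2.2.1 and DESeq2 1.32.0 with the build hg38. The sources used here do not name the counting program, its annotation or its treatment of reads that fit several places. The table's columns name a hairpin against GFP, a hairpin by number alone, and that numbered hairpin with MYC. They were matched to shControl, shDHX15 and shDHX15_MYC because DHX15 is the only hairpin target in the labels, a match that the labels do not state. The table has 26 gene symbols that look like dates and 2 that occur more than once. These were not named.

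Counts were filtered with filterByExpr, scaled by TMM and fitted with edgeR 4.0.16 (R 4.3.3) over all 9 libraries and 3 groups, so that the groups share 1 estimate of the spread. Each comparison was tested by edgeR's quasi-likelihood test with Benjamini-Hochberg adjustment over 15309 genes and a threshold of 0.05. Every adjusted p in the report is from this test. DESeq2 1.42.0, other scalings, filters and left-out libraries were alternatives. The fit was also run on simulated counts in which only a few of 14507 genes were changed. Of 50 genes changed 1.25-fold it recovered 62%, and of 50 changed 4-fold 98%. Since most genes differ in the real libraries, that run does not test the scaling. A count of 3, taken as the floor of detection, is 0.0591 to 0.0712 CPM in these libraries and covers counting error only. Gene positions and shared windows (100 bases, every 50) came from GENCODE on GRCh38, to which 94.9% of symbols matched.

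Genes were named by rule: DHX15 and MYC; the 10 highest and 10 lowest among called genes whose mean log2 CPM reached 3, whose groups do not overlap and which share under 0.2 of windows; in each class the 6 such genes with the largest smaller change of the 2 comparisons with shControl; and in each list the 3 most abundant members and the 3 with the largest change. Clones and uncharacterised loci were not named, and not every gene the rule gives is described. The members, classes and lists were chosen with earlier results of these data known. Replicate numbers were not used as pairs. Deviations of same-numbered shControl and shDHX15_MYC libraries from their group means correlated at 0.0057, 0.0019 and 0.0217. The values were 0.0979, 0.095 and 0.0042 for shControl and shDHX15, and -0.0059, -0.0917 and 0.0552 for shDHX15 and shDHX15_MYC.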

Additional observations from a re-analysis of the deposited data

How the results depend on the processing

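Scaling and the filter on low levels moved the counts. Genes staying away above control numbered 2422 with total-count scaling and 2526 when MYC and mitochondrial genes were also left out, against 1431, and those staying away below control 1029 and 974, against 1815. Genes at least 2-fold lower numbered 1442 and 1325, against 2223. Refitting only genes whose mean log2 CPM reached 3 gave 1075 at least 2-fold higher and 1040 at least 2-fold lower genes, against 3254 and 2223. The cause of these shifts was not tested beyond the change in scaling, and in the refit fewer genes were tested. MT-CO1 turned from -0.12 to 0.14, 0.20 and 0.07 in those 3 settings in turn, MT-CO2 from -0.13 to 0.14, 0.19 and 0.07, and DNAJA2 from -0.10 to 0.16, 0.22 and 0.09. EEF2 turned from -0.14 to 0.13, 0.18 and 0.06, and FBL from -0.16 to 0.10, 0.15 and 0.03. KARS turned from -0.22 to 0.05 and 0.10 with the first and second of them, and the median of the MYC-repressed genes from -0.16 to 0.10 and 0.16. The median of the DNA replication genes turned to 0.01 with the second alone. TPX2 and DNAJB6 were no longer called with the second setting (-0.01 and -0.06), and DNAJA2 was not called with DESeq2 (-0.06) or with 4 of the single libraries left out. With each single library left out, the log2 fold change of DHX15 ran from -0.54 to -0.51 and that of MYC from 6.01 to 6.04. DHX15 moved further with the scaling, to -0.26 and -0.20 with total-count scaling and with MYC and mitochondrial genes also left out, and to -0.33 in the refit. Genes called higher ran from 6195 to 6652, called lower from 6324 to 6694, at least 2-fold higher from 3207 to 3385 and at least 2-fold lower from 2198 to 2262. Genes staying away ran from 1226 to 1637 higher and from 1562 to 2012 lower, and overshooting genes from 1057 to 1374 higher and from 1298 to 1803 lower. Replicate numbers are shared between groups, but deviations of same-numbered libraries were only weakly correlated. With the replicate number as a block, 6385 genes were called higher and 6466 lower, 1397 and 1794 stayed away higher and lower, and 1248 and 1501 overshot. Depth limits genes near 3 counts, or 0.0591 to 0.0712 CPM.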

Other observations

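Interferon-induced genes held some steep rises. IFI44L went from 0.756, 0.566 and 0.554 CPM to 51.4, 55.4 and 52.6 CPM (log2 fold change 6.40, SE 0.165, adjusted p = 4.80e-18) and MX1 from 5.8, 4.18 and 5.99 CPM to 42.1, 43.7 and 44.5 CPM (log2 fold change 3.02, SE 0.0963, adjusted p = 5.58e-15), while MAVS, the adaptor of RNA sensing, fell by 0.86 on the log2 scale. Of 39 genes tested, 22 were higher and 12 lower (median 0.32). Among 18 tested T-ALL oncogenic factors, 7 were at least 2-fold higher and 7 at least 2-fold lower. TLX3, a homeobox gene low in control cells, went from 0.334, 0.236 and 0.341 CPM to 3.71, 2.79 and 3.6 CPM (log2 fold change 3.45, SE 0.347, adjusted p = 1.59e-08), and HOXA9 and MEF2C, named after their values were seen, rose by 2.98 and 2.96. HRK, a BH3-only death gene, went from 0.489, 0.472 and 0.171 CPM to 5.7, 6.15 and 5.14 CPM (log2 fold change 3.91, SE 0.292, adjusted p = 1.78e-10).

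AOC2 and AOC3 were the only pair of adjacent genes among the 32 single-locus genes that had a mean log2 CPM of 3 or more and were at least 8-fold higher. AOC2 (chromosome 17, 42844600 to 42850707, plus strand, GRCh38) ends 477 bases before AOC3 (chromosome 17, 42851184 to 42858130, plus strand). WNK4, also among the 10 highest, lies on the same chromosome at 42780678 to 42796936. Genes between them were not raised alike: PSME3 changed by 1.09, BECN1 by 0.06 and CNTD1 by -0.13, and BECN1 and CNTD1 did not reach a 2-fold change. Median log2 fold changes by nuclear chromosome, over genes whose mean log2 CPM reached 3, ran from -0.45 on chromosome 22 to -0.02 on chromosome 19.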
